A study of Mus musculus with 8 samples.

Results

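The genes described here are the nuclear genes of the mitochondrial respiratory chain and the ATP synthase, in RNA of mouse olfactory epithelium. They were chosen by gene name alone (Nduf, Sdh, Uqcr, Cox4 to Cox8 and Atp5 names), which gave 85 of the 25913 genes in the count table after 1 pseudogene name was left out. They comprise 37 genes of complex I, 4 of complex II, 8 of complex III, 19 of complex IV and 17 of the ATP synthase. The study set C57BL/6J mice aged 40 weeks whose olfactory sensory neurons lack Igf1r, the receptor of an insulin-like growth factor, beside control mice, with 4 libraries a group of dissected epithelium. One group has titles reading OMP_IGF1R (replicates 11, 12, 17 and 18) and the other has titles reading IGF1R_flfl (replicates 1, 2, 13 and 3). The genotype entries run the other way, with OMPflfl (Ctrl) on libraries titled OMP_IGF1R and OMPIGF1 (KO) on those titled IGF1R_flfl. Groups are therefore called by their titles, each fold change is OMP_IGF1R over IGF1R_flfl, and what it means for genotype depends on which label is right. The labels do not describe the line that drives the deletion, and they do not say whether each library is a separate animal. A p-value therefore reflects the variation among these libraries, which may be technical.

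The respiratory chain passes electrons from NADH, through complex I, and from succinate, through complex II, to ubiquinone, then through complex III and cytochrome c to complex IV, which reduces oxygen. Complexes I, III and IV pump protons across the inner mitochondrial membrane, and the ATP synthase lets them return to make ATP. A few core subunits are encoded in mitochondrial DNA and all others in the nucleus, so most of the genes of the pathway are the ones counted here. Olfactory sensory neurons keep mitochondria in the cell body and dendrite and spend ATP on ion pumping and on odour transduction in their cilia.

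Libraries held 18802471 to 27793375 counts. Igf1r stood at 49.6, 43.9, 34.5 and 40.5 CPM (counts scaled to library size) in OMP_IGF1R 11, 12, 17 and 18, against 72.9, 55.5, 67.9 and 69.9 CPM in IGF1R_flfl 1, 2, 13 and 3 (log2 -0.66, edgeR adjusted p = 0.0117). The targeted gene fell in libraries that carry the control genotype entry. Of 17 mature olfactory sensory neuron markers, 15 fell and 0 rose, and their summed level was 10877 to 12443 CPM in OMP_IGF1R and 17653 to 24649 CPM in IGF1R_flfl. The largest single part of that sum was Omp, at 1969 ± 224 CPM in OMP_IGF1R and 5386 ± 989.5 CPM in IGF1R_flfl (SD, n = 4 each). Its log2 fold change was -1.45 (edgeR adjusted p = 0.00179), where the median of the 17 markers was -0.66. Of 12 immature neuron markers, 9 rose and 0 fell. Among all tested genes, edgeR called 5.37% lower and 2.83% higher. Of 9 respiratory ciliated cell markers, 4 fell and 0 rose, all 9 were negative with a median of -0.31, and their sum was 558 to 646 CPM in OMP_IGF1R and 666 to 876 CPM in IGF1R_flfl, with no overlap. In bulk RNA, fewer cells of a type and less RNA per cell cannot be told apart, and what the changes in neuron and ciliated cell markers contribute to the results below was not tested. A pair of libraries stood apart by tissue markers. OMP_IGF1R 17 held 615 CPM of 14 skeletal muscle genes, among them the fast myosin Myh4, against 6.59 to 10.5 CPM in the rest of its group and 5.95 to 17.2 CPM in IGF1R_flfl. Myh4 alone had 3308 counts there, against 2, 0 and 6 in OMP_IGF1R 11, 12 and 18 and 0 in every IGF1R_flfl library. IGF1R_flfl 2 held 2151 CPM of olfactory bulb and oligodendrocyte genes, against 264 to 316 CPM in OMP_IGF1R and 292 to 331 CPM in the rest of IGF1R_flfl.

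Most respiratory chain genes had slightly lower values in the libraries titled OMP_IGF1R, and the difference passed the test for 1 gene. Of the 82 members that passed the filter on low counts, 72 had a negative log2 fold change, 1 was called lower and 0 were called higher by edgeR's quasi-likelihood test (threshold 0.05 after adjustment). Of the 17381 genes tested, 5.37% were called lower and 2.83% higher, so the share of members called, 1 of 82, was below the background. At an unadjusted edgeR p under 0.05, 11 members were lower and 0 higher, against 14.1% and 9.35% of all tested genes. The median log2 fold change of the members was -0.10, between quartiles of -0.14 and -0.05, where all tested genes had a median of -0.01, between quartiles of -0.14 and 0.12. Negative values made up 87.8% of the members and 52.5% of all tested genes. Members share libraries and are not replicates, so these shares carry no test. The groups did not overlap for 5 members, all lower in OMP_IGF1R, where 10.3% of all tested genes had such a gap in that direction and 6.57% in the other. Without OMP_IGF1R 12, the lowest of the 8 libraries in 47 members, 62 members were negative, the median was -0.07 and 0 were called. Without IGF1R_flfl 2 these values were 65, -0.06 and 1, and without OMP_IGF1R 17 they were 78, -0.15 and 4.

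**Figure D1:**
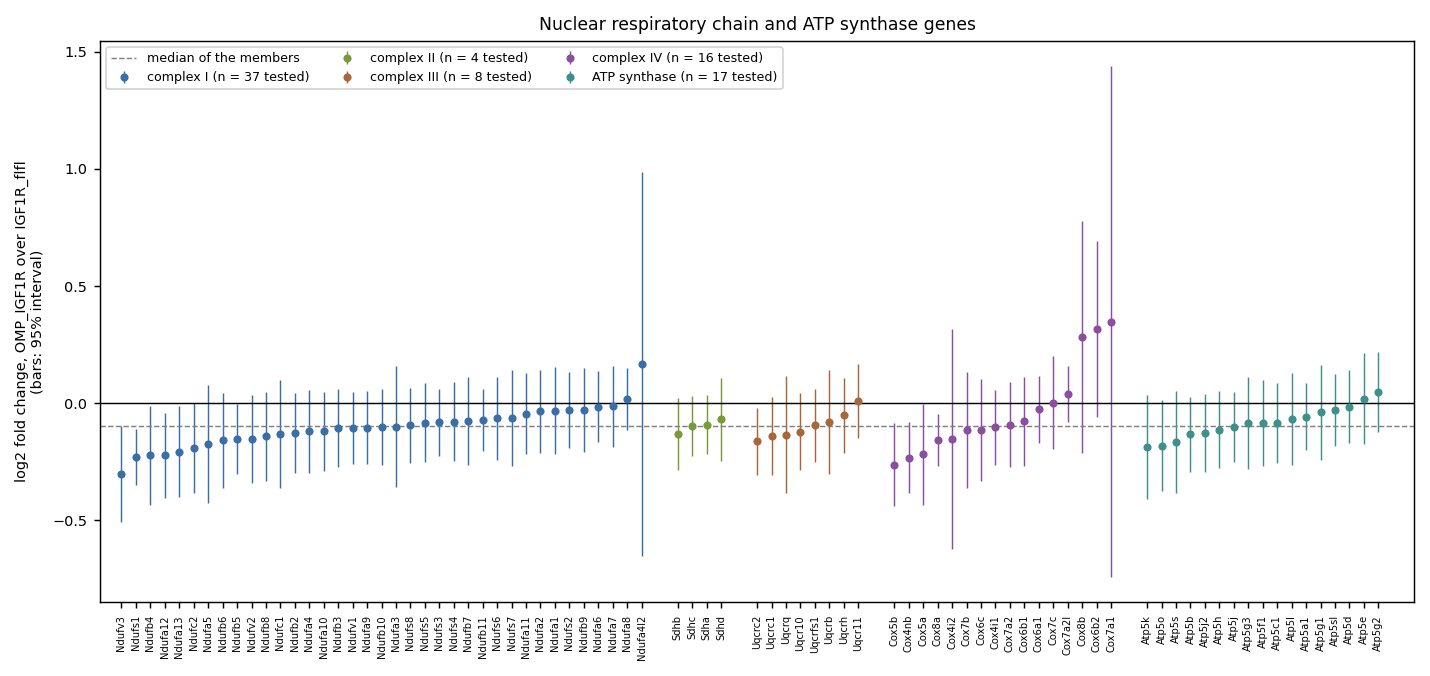
Log2 fold change of OMP_IGF1R over IGF1R_flfl for each of the 82 tested members, grouped by complex and ordered within it; bars are 95% intervals of the edgeR fit, and the dashed line is the members' median of -0.10. Most points lie just under 0 in every complex, and the wide intervals above 0 belong to genes of low or uneven counts such as Cox7a1 and Ndufa4l2.

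The 5 complexes had nearly the same shift. Median log2 fold changes were -0.10 for complex I, -0.10 for complex II, -0.11 for complex III, -0.10 for complex IV and -0.09 for the ATP synthase. Summed over its members, complex I stood at 2278, 2155, 2612 and 2211 CPM in OMP_IGF1R 11, 12, 17 and 18, against 2354, 2610, 2460 and 2582 CPM in IGF1R_flfl 1, 2, 13 and 3. The groups overlapped through OMP_IGF1R 17 alone, whose sum was the highest of all 8 libraries. The ATP synthase sum was 3098 ± 249 CPM in OMP_IGF1R and 3304 ± 137 CPM in IGF1R_flfl (SD, n = 4 each), a ratio of 0.938. Complex II was the most even within OMP_IGF1R, with 623 ± 31.0 CPM there and 666 ± 24.8 CPM in IGF1R_flfl (SD, n = 4 each; ratio 0.935). For complexes III and IV the ratios were 0.928 and 0.934, and for complex I 0.925. Scaled by raw library totals in place of TMM sizes, the ratios were closer to 1, from 0.970 in complex I to 0.983 in the ATP synthase. All members together made up 0.806% to 0.918% of the counts of a library.

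**Figure D2:**
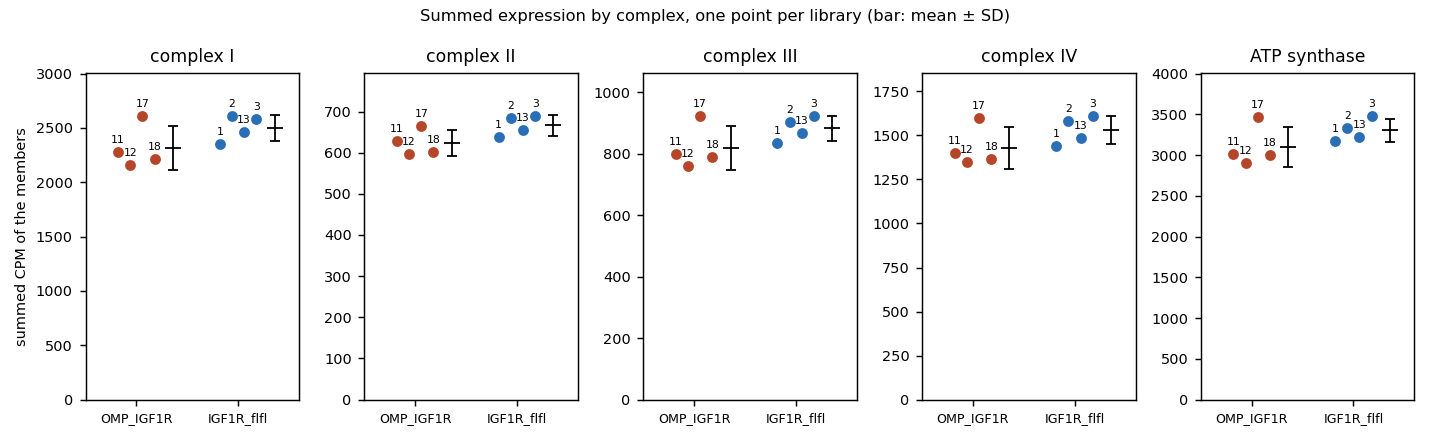
Summed CPM of the members of each complex, 1 point per library with its replicate number, OMP_IGF1R left and IGF1R_flfl right; bars give mean ± SD (n = 4 each) and the axes start at 0. In each complex OMP_IGF1R 11, 12 and 18 lie below every IGF1R_flfl library; OMP_IGF1R 17 lies among them in complexes II to IV and the ATP synthase, and just above the highest of them in complex I.

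The library OMP_IGF1R 17, which carried the skeletal muscle genes, was the highest of its group in 78 of the 82 tested members, and the highest of all 8 libraries in 30. Its median deviation from each gene's mean was 0.13 on the log2 scale, against -0.08, -0.14 and -0.10 in OMP_IGF1R 11, 12 and 18 and -0.04, 0.12, 0.02 and 0.11 in IGF1R_flfl 1, 2, 13 and 3. Skeletal muscle is rich in mitochondria, as background. With OMP_IGF1R 17 left out, the other 3 libraries of its group lay below all 4 IGF1R_flfl libraries for 45 of the 82 members, where 14.1% of the 17381 genes did so. In that fit 78 of the 82 members were negative with a median of -0.15, against a median of -0.00 for all genes and 50.8% of them negative. It called 4 members lower, Ndufs1 (-0.25, edgeR adjusted p = 0.0292), Ndufb4 (-0.31, edgeR adjusted p = 0.0470), Ndufc2 (-0.27, edgeR adjusted p = 0.0473) and Ndufv3 (-0.36, edgeR adjusted p = 0.0494), where 4.22% of all tested genes were called lower. Ndufb4 and Ndufc2, both accessory subunits of the membrane arm of complex I, are named after their values were seen. The part of muscle RNA in the high values of this library was not tested. This count of members that do not overlap was looked at after the data had been seen. OMP_IGF1R 17 was the highest of its group in 78 of these members, so leaving it out lowers the group by construction. The 14.1% of all genes was not matched for that, so neither the count nor the shift carries a test.

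**Figure D3:**
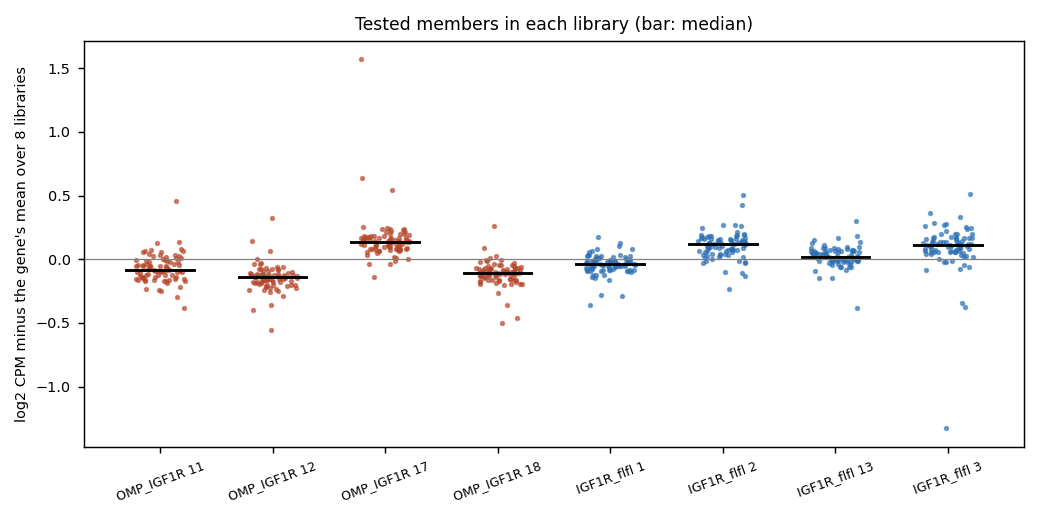
Each point is a tested member in a library, as log2 CPM minus the gene's mean over the 8 libraries, with a bar at the median; OMP_IGF1R libraries are on the left and IGF1R_flfl on the right. The median is 0.13 in OMP_IGF1R 17 and between -0.14 and -0.08 in the rest of that group, and it varies from -0.04 to 0.12 in IGF1R_flfl.

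Complex I held the gene that passed the test. Ndufs1 (ENSMUSG00000025968, GRCm38 chromosome 1, 63143596 to 63176822), the largest core subunit, carries iron-sulphur clusters in the arm that accepts electrons from NADH. It stood at 119.6, 112.9, 128.6 and 120.0 CPM in OMP_IGF1R 11, 12, 17 and 18, against 137.3, 145.4, 141.9 and 139.7 CPM in IGF1R_flfl 1, 2, 13 and 3. The groups did not overlap, OMP_IGF1R 17 was again the highest of its group, and the log2 fold change was -0.23 (SE 0.0533, 95% interval -0.35 to -0.11, edgeR adjusted p = 0.0306). The call held without OMP_IGF1R 17 and was lost without any other single library (edgeR adjusted p up to 0.0900). The gene overlaps Gm11602, a gene annotated on the opposite strand with 294 to 513 counts per library, which was itself lower (-0.32, edgeR adjusted p = 0.0391). Whether the counting used strand is not given in the sources used here, so reads in the overlap could belong to either. Cox4nb, Cox4i1, Cox6a2, Uqcrc2, Ndufb11, Atp5o and the low-count Ndufa4l2, named below, also overlap other genes.

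Ndufv3, an accessory subunit of the NADH-binding module, had the most negative fold change of all members. It stood at 70.6, 58.1, 76.5 and 65.2 CPM in OMP_IGF1R 11, 12, 17 and 18, against 80.5, 78.3, 80.0 and 94.2 CPM in IGF1R_flfl 1, 2, 13 and 3. The groups did not overlap, but the spread was wider than for Ndufs1 and the difference of -0.30 (SE 0.0917, 95% interval -0.51 to -0.10) missed the threshold (edgeR adjusted p = 0.0790). Ndufa12, an accessory subunit of the peripheral arm, averaged 34.9 ± 3.09 CPM in OMP_IGF1R and 40.7 ± 3.30 CPM in IGF1R_flfl (SD, n = 4 each), with overlap (-0.22, edgeR adjusted p = 0.129). All 7 core subunits of complex I encoded in the nucleus had negative values, with a median of -0.09. Of the 30 other complex I names, grouped as accessory subunits, 28 were negative, with a median of -0.10. The exceptions were Ndufa8 (0.02) and the low-count Ndufa4l2 (0.17). The 30 go by name and include Ndufa4l2 and its paralogue Ndufa4, described below.

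Ndufa4 bears a complex I name but is now counted as a subunit of complex IV. It stood at 158 ± 15.2 CPM in OMP_IGF1R and 172 ± 11.4 CPM in IGF1R_flfl (SD, n = 4 each; -0.12, edgeR adjusted p = 0.40). Its paralogue Ndufa4l2, known as a gene induced by low oxygen, was at 1.13 ± 0.333 and 1.002 ± 0.420 CPM in the same groups, near the lower limit of what was tested. Per kilobase of exon, the highest level in complex I was that of Ndufb11 at 125 CPM per kb, where the median of the 37 members was 37.8. Ndufb11 itself differed by -0.07 (95% interval -0.20 to 0.06).

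Complex II, succinate dehydrogenase, also works in the citric acid cycle. Its intervals were narrow and none of the 4 genes passed edgeR's test, where 5.37% of all tested genes were called lower and 2.83% higher. Sdha, the flavoprotein that oxidises succinate, stood at 318, 315, 330 and 314 CPM in OMP_IGF1R 11, 12, 17 and 18, against 324, 361, 333 and 343 CPM in IGF1R_flfl 1, 2, 13 and 3 (-0.09, 95% interval -0.22 to 0.03). Sdhb, the iron-sulphur subunit, differed by -0.13 (edgeR adjusted p = 0.28). The membrane anchors Sdhc and Sdhd differed by -0.10 and -0.07. All 4 intervals exclude a fall of 0.5 on the log2 scale.

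Complex III showed the same small shift. Uqcrc2, a core protein of the matrix side, had the smallest p of the complex. It stood at 188.5, 181.9, 215.6 and 191.6 CPM in OMP_IGF1R 11, 12, 17 and 18, against 209.9, 222.9, 215.3 and 222.7 CPM in IGF1R_flfl 1, 2, 13 and 3. The overlap came from OMP_IGF1R 17, and the difference of -0.16 (SE 0.0636) did not pass (edgeR adjusted p = 0.156). Its partner Uqcrc1 differed by -0.14, the Rieske iron-sulphur protein Uqcrfs1 by -0.09, and the small subunit Uqcr10 by -0.12. Uqcrh, the hinge protein that aids cytochrome c1 and has the highest level of the complex per exon length at 121.5 CPM per kb, differed by -0.05, and Uqcr11 by 0.01.

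**Figure D4:**
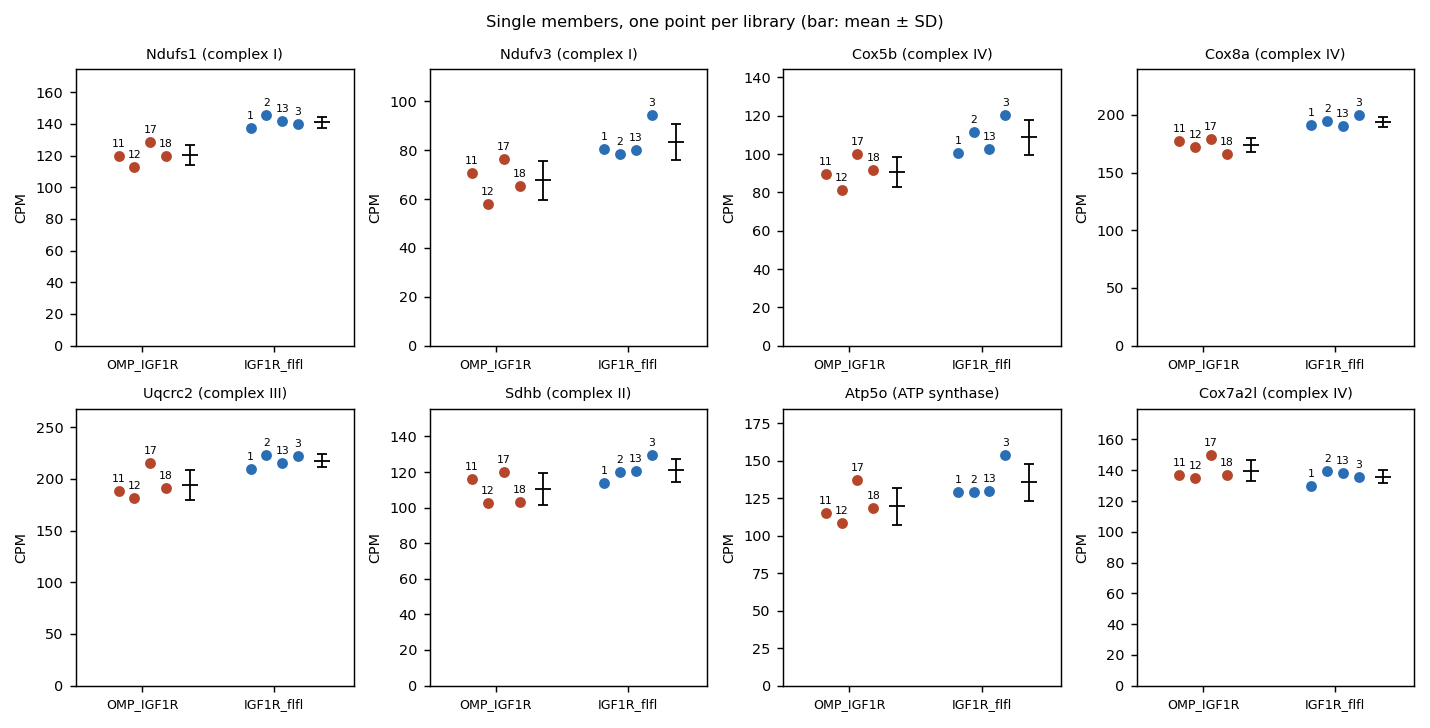
CPM of 8 members, 1 point per library with its replicate number, OMP_IGF1R left and IGF1R_flfl right; bars give mean ± SD (n = 4 each) and the axes start at 0. Ndufs1, Ndufv3, Cox5b and Cox8a show groups that do not overlap, while in Uqcrc2 and Atp5o the library OMP_IGF1R 17 alone reaches the IGF1R_flfl values, in Sdhb OMP_IGF1R 11 does so too, and Cox7a2l has a log2 fold change of 0.04.

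In complex IV, cytochrome c oxidase, the widely used subunits behaved as the rest of the chain. Cox5b, a subunit of the matrix side that binds zinc, stood at 89.7, 81.0, 99.9 and 91.6 CPM in OMP_IGF1R 11, 12, 17 and 18, against 100.6, 111.3, 102.6 and 120.2 CPM in IGF1R_flfl 1, 2, 13 and 3. The groups were separated by less than 1 CPM and the difference was -0.26 (SE 0.0788, edgeR adjusted p = 0.0749). Cox8a, the smallest subunit in its common form and the member with the highest level per exon length (297 CPM per kb), averaged 174 ± 5.82 CPM in OMP_IGF1R and 194 ± 4.21 CPM in IGF1R_flfl (SD, n = 4 each), with no overlap (-0.16, edgeR adjusted p = 0.0844). In all, 9 of 10 widely used subunits were negative, with a median of -0.11, and Cox7c was at 0.00. Cox6a1 differed by -0.03 (95% interval -0.17 to 0.12), a value whose sign changed with upper-quartile scaling and without OMP_IGF1R 12 or IGF1R_flfl 3.

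A pair of complex IV names belong to genes with another role. Cox4nb is the neighbour of Cox4i1, encodes a subunit of a membrane protein insertion complex of the endoplasmic reticulum and is no oxidase subunit. It stood at 104 ± 4.92 CPM in OMP_IGF1R and 122 ± 9.75 CPM in IGF1R_flfl (SD, n = 4 each), with no overlap (-0.23, edgeR adjusted p = 0.0652). Cox7a2l, a factor that helps complexes III and IV join into supercomplexes, differed by 0.04 (95% interval -0.08 to 0.16). Atp5s and Atp5sl bear ATP synthase names but do not encode its subunits. Leaving out Cox4nb, Atp5s and Atp5sl, the median of the other 79 tested members was -0.09, with 69 negative.

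Among the tissue-restricted isoforms of complex IV, Cox6a2 and Cox7a1 were high in a single library, and of the 4 tested 3 had positive values and 1 a negative one, none of them called. Cox6a2, the heart and skeletal muscle form of subunit 6a, had 190 counts in OMP_IGF1R 17 and 0, 0 and 1 in OMP_IGF1R 11, 12 and 18, against 0, 1, 1 and 4 in IGF1R_flfl 1, 2, 13 and 3. It did not pass the filter on low counts and was not tested. Per exon length it made up 5.26% of the Cox6a1 and Cox6a2 pair in OMP_IGF1R 17 and 0 to 0.102% in every other library. Cox7a1, the muscle form of subunit 7a, stood at 2.50, 2.22, 9.69 and 2.30 CPM in OMP_IGF1R 11, 12, 17 and 18, against 2.54, 2.97, 2.95 and 4.64 CPM in IGF1R_flfl 1, 2, 13 and 3. Its fold change of 0.35 (SE 0.485, edgeR adjusted p = 0.72) rested on OMP_IGF1R 17 and was -0.47 without it. Both genes were thus highest in the library with the muscle markers.

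Cox8b, a form of subunit 8 found in heart, muscle and brown fat of mice, was expressed in every library and followed another pattern. It stood at 36.3, 41.5, 48.5 and 24.1 CPM in OMP_IGF1R 11, 12, 17 and 18, against 27.2, 28.2, 25.4 and 42.6 CPM in IGF1R_flfl 1, 2, 13 and 3 (0.28, SE 0.221, edgeR adjusted p = 0.49). High and low values occurred in both groups. OMP_IGF1R 17, the library with the muscle markers, had the most Cox8b. IGF1R_flfl 3, with 5.95 CPM of muscle genes, had more Cox8b than OMP_IGF1R 11 or 12. The part of muscle RNA in these values was not tested. Per exon length Cox8b made up 26.8% ± 5.11 of the Cox8a and Cox8b pair in OMP_IGF1R and 21.3% ± 3.75 in IGF1R_flfl (SD, n = 4 each). Cox6b2, known from testis, was at 3.22 ± 0.488 CPM in OMP_IGF1R and 2.58 ± 0.387 CPM in IGF1R_flfl (0.32, edgeR adjusted p = 0.29). Cox4i2, a form of subunit 4 found in lung and in cells of small vessels, was at 1.74 ± 0.174 and 1.93 ± 0.494 CPM in the same groups (SD, n = 4 each; -0.15, edgeR adjusted p = 0.71). Cox7b2 and Cox8c had 0 counts in all 8 libraries.

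**Figure D5:**
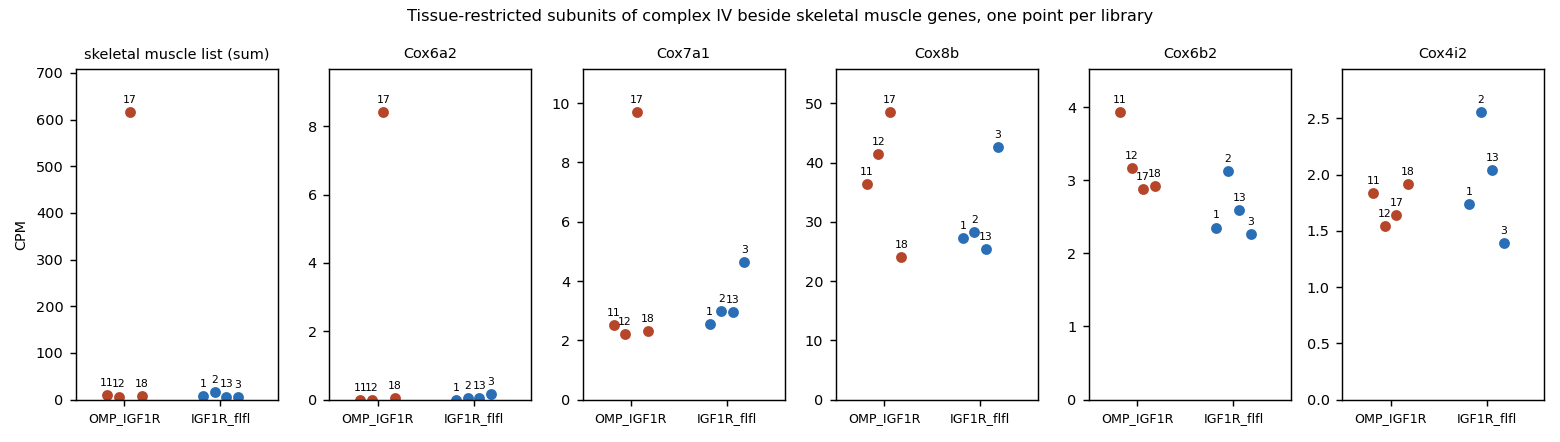
Summed CPM of the skeletal muscle marker list and CPM of 5 tissue-restricted subunits of complex IV, 1 point per library with its replicate number, OMP_IGF1R left and IGF1R_flfl right; axes start at 0. OMP_IGF1R 17 stands alone in the muscle list (615 CPM), Cox6a2 (8.41 CPM) and Cox7a1 (9.69 CPM), and does not in Cox6b2 or Cox4i2. In Cox8b it is the highest (48.5 CPM), with IGF1R_flfl 3 next (42.6 CPM).

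In the ATP synthase 0 of 17 genes passed edgeR's test, and 0 had an unadjusted edgeR p under 0.05. DESeq2 and limma voom called 0 of the 17 as well. Of all tested genes edgeR called 5.37% lower and 2.83% higher, DESeq2 7.76% and 4.67%, and voom 6.97% and 3.67%. At an unadjusted edgeR p under 0.05 the shares of all tested genes were 14.1% lower and 9.35% higher. All 17 intervals lay within 0.5 of 0 on the log2 scale. The 17 genes go by name and include Atp5s and Atp5sl, which are not subunits. Atp5b, the catalytic beta subunit, stood at 826, 794, 933 and 821 CPM in OMP_IGF1R 11, 12, 17 and 18, against 918, 906, 888 and 988 CPM in IGF1R_flfl 1, 2, 13 and 3 (-0.13, edgeR adjusted p = 0.29). Atp5a1, the alpha subunit and the highest of the complex per exon length at 241 CPM per kb, averaged 740 ± 40.5 CPM in OMP_IGF1R and 770 ± 29.2 CPM in IGF1R_flfl (SD, n = 4 each; -0.06). The 4 subunits of the peripheral stalk, which holds the catalytic head still, were all negative with a median of -0.11, among them Atp5o at -0.18 (edgeR adjusted p = 0.25). The small membrane subunit Atp5k, which takes part in joining the enzyme into dimers, stood at 57.2, 60.3, 74.8 and 58.4 CPM in OMP_IGF1R 11, 12, 17 and 18, against 62.5, 75.8, 69.6 and 77.4 CPM in IGF1R_flfl 1, 2, 13 and 3 (-0.19, edgeR adjusted p = 0.29).

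The rotor ring of the ATP synthase is built from copies of subunit c, which 3 genes encode with the same mature protein and different import signals. Atp5g3 was the main one, with 74.0% ± 1.2 of the 3 genes' summed level per exon length in OMP_IGF1R and 75.5% ± 0.839 in IGF1R_flfl (SD, n = 4 each). Atp5g2 made up 17.3% ± 1.31 in OMP_IGF1R and 16.0% ± 1.03 in IGF1R_flfl, and Atp5g1 8.72% ± 0.150 and 8.58% ± 0.417 in the same groups (SD, n = 4 each). The ranges overlapped for all 3 genes. The order of Atp5g1 and Atp5g2 depends on the exon length used, 4912 bases for Atp5g1 and 1675 for Atp5g2. By CPM alone Atp5g1 was the higher, at 52.6 CPM in OMP_IGF1R and 54.0 CPM in IGF1R_flfl. Atp5g2 was at 35.3 and 34.2 CPM in the same groups, and Atp5g3 was the highest by both measures. As differences in level, Atp5g3 was at -0.09, Atp5g1 at -0.04 and Atp5g2 at 0.05, and none passed the test (edgeR adjusted p of 0.60, 0.84 and 0.76).

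Among other genes of the pathway, the call that held under every setting was that of a regulator. Ppargc1a encodes PGC-1alpha, a coactivator that raises expression of respiratory chain genes through the factors NRF1, GABPA and ERR alpha. It stood at 45.6, 44.2, 45.3 and 44.7 CPM in OMP_IGF1R 11, 12, 17 and 18, against 55.6, 59.6, 53.1 and 58.3 CPM in IGF1R_flfl 1, 2, 13 and 3. The groups were clearly apart, OMP_IGF1R 17 did not stand out, and the log2 fold change was -0.33 (SE 0.0481, edgeR adjusted p = 0.00600). It was called in all 8 fits that left out 1 library (edgeR adjusted p up to 0.0307). Its relative Ppargc1b was at 4.05 ± 0.459 CPM in OMP_IGF1R and 5.72 ± 0.524 CPM in IGF1R_flfl (SD, n = 4 each; -0.50, edgeR adjusted p = 0.0454), and lost its call without any 1 library (edgeR adjusted p of 0.05001 to 0.132). Of the 15 biogenesis regulators, 2 fell and 0 rose, with a median of -0.04, where edgeR called 5.37% of all tested genes lower and 2.83% higher.

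The 13 citric acid cycle genes had a median log2 fold change of -0.13, with 12 negative. Of 29 assembly and inhibitor factors edgeR called 0, with a median of -0.09, 27 negative and 4 at an unadjusted p under 0.05; DESeq2 called 1 lower and voom 0. Of 6 tested ATP and phosphate carriers edgeR called 0, with a median of -0.10 and 2 at an unadjusted p under 0.05; DESeq2 and voom each called 1 lower. Beside these counts, edgeR called 5.37% of all tested genes lower and 2.83% higher, and 14.1% were lower at an unadjusted edgeR p under 0.05. DESeq2 called 7.76% lower and voom 6.97%. Cyc1 and Cycs, cytochromes of the chain that the name rule does not take, were both negative and not called. In the sums of the assembly, citric acid cycle and carrier lists too, OMP_IGF1R 11, 12 and 18 lay below every IGF1R_flfl library, for example the carriers with 1217, 1210, 1429 and 1261 CPM in OMP_IGF1R 11, 12, 17 and 18, against 1358, 1449, 1367 and 1451 CPM in IGF1R_flfl 1, 2, 13 and 3.

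The 13 protein-coding genes of mitochondrial DNA were counted very unevenly. Of these, mt-Nd1, mt-Nd2, mt-Nd4, mt-Nd5, mt-Nd6, mt-Cytb and mt-Co1 had 23380 to 250375 counts per library, while the neighbouring mt-Co2, mt-Atp8, mt-Atp6, mt-Co3, mt-Nd3 and mt-Nd4l had 0 to 47. Gm10222, a gene on chromosome 1 (24612404 to 24612700), had 13580 to 31756 counts. As background, chromosome 1 of the mouse carries a nuclear copy of part of mitochondrial DNA, and how reads with several matches were counted is not given in the sources used here; its part in the low counts was not tested. Summed, the mitochondrial genes stood at 21585, 25081, 26374 and 23811 CPM in OMP_IGF1R 11, 12, 17 and 18, against 23275, 36654, 29173 and 24312 CPM in IGF1R_flfl 1, 2, 13 and 3. IGF1R_flfl 2, the library with bulb and oligodendrocyte genes, was the highest, and the groups overlapped. Of the 10 tested genes, with a median log2 fold change of -0.24, edgeR called 0, DESeq2 0 and voom 0. At an unadjusted edgeR p under 0.05 there were 0 as well. Of all tested genes edgeR called 5.37% lower and 2.83% higher, and 14.1% and 9.35% were so at the unadjusted level.

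Promoter sequence was examined because PGC-1alpha acts through factors with known binding motifs. Windows of 250 bases before to 50 after the start were found for 66 of the 85 members in RefSeq (GRCm38.p6), in 71 windows. They were searched on both strands for the inverted repeat of GCGCA with no gap (NRF1), CCGGAAGT (GABPA), AAGATGGC (YY1) and TCAAGGTCA (ERR alpha), none of which contains another. The NRF1 letters were in 7.04% of member windows and 0.971% of all 32851 windows, and the YY1 letters in 12.7% and 2.75%. The GABPA letters were in 7.04% and 3.89%, and those of ERR alpha in 2.82% and 0.423%. The windows of members also had more G and C, with a median of 56.0% in the bases before the start against 52.4% in all windows. A match is a description of the letters and not a site. Only exact letters were searched, so a gene without a match can hold a variant of a motif. The medians below therefore cannot separate genes bound by these factors from others. Tested members with any match had a median log2 fold change of -0.09 (21 genes, -0.19 to 0.05), and those with a window and no match one of -0.10 (44 genes, -0.30 to 0.35).

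The bases before the start are shown for the members with the most negative values that have a window, Ndufv3 and Cox5b, and for a member with a match of NRF1 (Atp5k), of GABPA (Atp5h, a stalk subunit at -0.11) and of ERR alpha (Atp5g3). Each is written 5′ to 3′ on the strand of the gene and ends at the base before the start, with matches in capitals; the first pair hold none. The locations are chr17:31519865-31520114, plus strand, for Ndufv3; chr1:36691237-36691486, plus strand, for Cox5b; chr5:108434400-108434649, minus strand, for Atp5k; chr11:115419920-115420169, minus strand, for Atp5h. That of Atp5g3 is chr2:73911327-73911576, minus strand.
Ndufv3: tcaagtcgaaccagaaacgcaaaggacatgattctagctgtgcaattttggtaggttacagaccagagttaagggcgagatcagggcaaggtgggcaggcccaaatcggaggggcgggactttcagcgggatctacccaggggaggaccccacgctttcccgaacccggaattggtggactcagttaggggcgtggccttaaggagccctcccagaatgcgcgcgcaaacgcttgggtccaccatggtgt
Cox5b: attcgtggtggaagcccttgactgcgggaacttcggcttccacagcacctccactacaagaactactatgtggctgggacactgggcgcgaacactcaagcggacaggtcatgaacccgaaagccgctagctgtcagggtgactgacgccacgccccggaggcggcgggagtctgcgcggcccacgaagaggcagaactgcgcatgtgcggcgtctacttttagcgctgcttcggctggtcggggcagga
Atp5k: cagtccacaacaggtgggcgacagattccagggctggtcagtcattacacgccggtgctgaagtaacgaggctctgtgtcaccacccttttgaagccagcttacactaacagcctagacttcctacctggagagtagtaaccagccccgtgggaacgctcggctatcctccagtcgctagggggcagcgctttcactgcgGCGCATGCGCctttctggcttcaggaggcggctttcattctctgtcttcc
Atp5h: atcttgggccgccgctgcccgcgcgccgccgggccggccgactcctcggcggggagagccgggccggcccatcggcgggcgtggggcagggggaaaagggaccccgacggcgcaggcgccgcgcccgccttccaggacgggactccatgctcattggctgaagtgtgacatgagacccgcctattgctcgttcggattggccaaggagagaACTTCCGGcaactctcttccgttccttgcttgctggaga
Atp5g3: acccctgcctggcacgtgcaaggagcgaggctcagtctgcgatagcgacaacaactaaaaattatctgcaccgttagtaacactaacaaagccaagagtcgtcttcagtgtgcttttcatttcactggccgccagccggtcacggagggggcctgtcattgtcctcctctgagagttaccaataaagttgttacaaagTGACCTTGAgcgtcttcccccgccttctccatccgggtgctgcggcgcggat
All 3 matches lie in the part of the window nearest the start. The NRF1 letters of Atp5k read the same on both strands, while the GABPA letters of Atp5h and the ERR alpha letters of Atp5g3 lie on the strand opposite to the gene. The 5 genes were chosen for their values or their matches, so their differences are not compared, and none of the 5 passed the test.

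The authors' deposited table gave an adjusted p under 0.05 to 5 members, all with a negative fold change. They were Ndufs1 (-0.22), Cox8a (-0.15), Cox4nb (-0.22), Cox5b (-0.24) and Ndufv3 (-0.27) in the authors' deposited table, the same 5 members whose groups did not overlap. In the authors' deposited table, 8.43% of all genes with an adjusted p were at that level with a negative sign and 4.93% with a positive one. The file does not state the direction of its fold changes, but their sign was that of OMP_IGF1R over IGF1R_flfl for all 2122 of its calls tested here. DESeq2 on the same counts called the same 5 members lower and 0 higher, where it called 7.76% of genes lower and 4.67% higher. Voom called 4 of them lower (not Cox5b) and 0 higher, against 6.97% and 3.67% of genes. In edgeR 1 member was called lower with DESeq2 size factors (background 4.88%), with no filter beyond 1 count (3.58%) and with a filter of 1 CPM in 4 libraries (5.89%), and 0 with upper-quartile scaling (4.27%). The background was 2.68%, 2.26%, 4.22% and 2.17% of genes called lower without OMP_IGF1R 11, 12, 17 or 18, where 0, 0, 4 and 0 members were. Without IGF1R_flfl 1, 2, 13 or 3 it was 3.03%, 5.52%, 4.22% and 3.08%, with 0, 1, 0 and 0 members, the 1 being Cox4nb. Without IGF1R_flfl 2 and OMP_IGF1R 17 together 3 members were called lower, against 4.84% of genes. The 95% interval excluded a fall of 0.5 on the log2 scale for 78 of the 82 tested members, and lay within 0.5 of 0 on both sides for 76.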

How the data were processed

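RNA of dissected olfactory epithelium was sequenced as stranded, poly(A)-selected paired reads, per the labels' protocols. The authors' count table gives raw whole-number counts for each gene in each library. The submitters' processing notes name Trim Galore 0.3.7, TopHat2 2.0.14, SAMtools 1.2, DESeq2 and the mouse build GRCm38 (mm10). The counting tool and its strand setting were not given in the sources used here; 20 members overlap another gene. A second table, deposited by the authors, has per the file headers a mean normalized signal, a log2 fold change and its standard error, a test score, and raw and adjusted p-values; it served only for description.

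The count test was edgeR 4.0.16 (quasi-likelihood, TMM, filterByExpr) under R 4.3.3, fitted to all genes of all 8 libraries, 4 per group by title, with Benjamini-Hochberg adjustment over 17381 genes and a threshold of 0.05. SE is the log2 fold change over the root of F, and intervals (95%) use its degrees of freedom. CPM uses TMM effective library sizes. Levels per kb use the summed exon length of GENCODE annotation on GRCm38, which all 85 members have. Library totals ran from 18802471 to 27793375 counts. Alternatives were DESeq2 size factors, upper-quartile scaling, 2 other filters, DESeq2 1.42.0, limma 3.58.1 voom with sample weights, and leaving out libraries. The code was tested on simulated data; in the 1 data set drawn, edgeR's share of false calls was above its nominal level, so calls close to the threshold are less certain than their adjusted p.

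The members and all lists were chosen with earlier results of these data known. Named are called members, the 3 smallest p and 2 highest levels per kb of each complex, the isoform pairs, and called genes of the 6 pathway lists; others are given as examples chosen after their values were seen. The result for 1 called gene of these lists is not reported here. Of 42 assembly factors listed, 29 were found by symbol.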

Additional observations from a re-analysis of the deposited data

Results flagged for a closer look

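In groups of 4 libraries, the gap of the highest or lowest library to its nearest neighbour was compared with the group's range by Dixon's rule at its 95% critical value, for the named genes, the complexes and the lists. Of 120 groups looked at 14 stood out. For a single group chance gives about 1 in 20, but these groups share the same 8 libraries and hold genes that vary together. The 14 are therefore a description and were not measured against chance. OMP_IGF1R 17 was far above its group in Uqcrh (166 CPM, against 140 to 143), Cox6a2 (8.41 CPM, against 0 to 0.0384), Cox7a1 (9.69 CPM, against 2.22 to 2.50), Cox7a2 (82.3 CPM, against 66.3 to 68.4) and Cox7b (100.8 CPM, against 74.7 to 78.0). The same library stood out in the skeletal muscle list (615 CPM, against 6.59 to 10.5) and the Bowman gland list (29755 CPM, against 18062 to 20060). IGF1R_flfl 3 was far above its group in Ndufv3 (94.2 CPM, against 78.3 to 80.5), Sdhc (123.0 CPM, against 114.9 to 116), Cox6a1 (160.9 CPM, against 146 to 147), Cox8b (42.6 CPM, against 25.4 to 28.2) and Atp5o (153.6 CPM, against 129 to 130.1). IGF1R_flfl 2 stood out in the bulb and oligodendrocyte list (2151 CPM, against 292 to 331) and in the muscle list (17.2 CPM, against 5.95 to 6.74), where Pvalb had 298 counts.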

How the results depend on the processing

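Under 15 other settings the median log2 fold change of the members stayed negative, from -0.15 to -0.06. The number of members called lower, 1 with all libraries in edgeR, was 0 with upper-quartile scaling, 5 with DESeq2, 4 with voom, 3 without IGF1R_flfl 2 and OMP_IGF1R 17 together, and 0 to 4 when 1 library was left out. For the pathway lists the number called, 3 in the same fit, was 1 with upper-quartile scaling, 1 with no filter beyond 1 count, 7 with DESeq2, 6 with voom, and 1 to 5 when 1 library was left out. All genes called, 1425 in the same fit, were 569 to 1477 when 1 library was left out and 2140 with DESeq2. The ratio of summed CPM stayed below 1 in each complex with raw library totals (0.970 to 0.983), without the tissue-restricted isoforms (0.925 to 0.938) and without any 1 library (0.891 to 0.946 for complex I, 0.920 to 0.950 for II, 0.894 to 0.949 for III, 0.903 to 0.955 for IV and 0.907 to 0.959 for the ATP synthase). The sign of 6 named genes, none of them called, changed in these cases, and the cause was not tested. With upper-quartile scaling Cox6a1 was 0.0064, and with voom Uqcr11 was -0.0101 and Cox7a1 -0.0417. Without IGF1R_flfl 2 and OMP_IGF1R 17 together Uqcr11 was -0.0389, Cox7a1 -0.5164 and Cox4i2 0.0498, while Cox6a1 kept its sign at -0.0542. Leaving out 1 library, the range was -0.0538 to 0.0151 for Cox6a1, -0.0384 to 0.0538 for Uqcr11, -0.4738 to 0.5691 for Cox7a1, -0.1139 to 0.0177 for Atp5g1, -0.089 to 0.3517 for Ndufa4l2 and -0.278 to 0.0221 for Cox4i2. No paired analysis was possible because the groups share no replicate numbers. Cox7b2 and Cox8c had 0 counts, and Cox6a2, with nearly all of its counts in 1 library, did not pass the filter.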
